A study of Mus musculus with 4 samples.

Results

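The lysosome genes described here were 46 of the 13976 genes measured by RNA sequencing in 4 myeloid populations sorted from EO771 tumours (EO771 is a mammary carcinoma line of the mouse). They were 30 genes taken from a list of lysosomal enzymes, membrane proteins, lipid carriers and regulators, all of which had an entry, and 16 entries whose symbol begins with Atp6v0 or Atp6v1, the proton pump. Each population had 1 library: type 1 conventional dendritic cells labelled CD103+cDC1 (cDC1), type 2 cells labelled CD11b+cDC2 (cDC2), an intermediate population labelled CD103intCD11b+DC (CD103int DC), and the macrophages. Locoregional hetIL-15, a heterodimeric interleukin-15, is named in the title of the study, but the labels do not say which treatment, if any, the tumours of these libraries had received. The labels give no genotype, mouse strain, age, number of animals or sort gates. Without a second library per population no difference could be set against replicate error, so no p-value is given. All levels are CPM, reads per 1000000, as the authors scaled them, and 4 values in a row stand in the order cDC1, cDC2, CD103int DC, macrophage. A range in brackets is a 95% interval for counting error alone.

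Lysosomes are acidic compartments in which hydrolases degrade proteins, glycans and lipids taken up from outside or delivered by autophagy. The acid is made by the V-type ATPase, in which a cytosolic V1 sector hydrolyses ATP and turns a membrane V0 sector that carries protons inward. Many lysosomal genes share an E-box element, the CLEAR element, bound by the transcription factors TFEB and TFE3. In dendritic cells lysosomal proteolysis prepares peptides for MHC class II, and type 1 dendritic cells are known for limited acidification and degradation, which spares antigen for cross-presentation. Macrophages are known for strongly degradative lysosomes.

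The promoters of several members carry the E-box. The letters CACGTG, which read the same on both strands, were searched in RefSeq windows (GRCm38.p6) from 250 bases before to 50 bases after the start site. Of the 37 members with a window, 12 held the motif (32.4%), against 11.8% of the 9615 genes of the deposited table with a window and 7.15% of all 32851 windows. The longer form TCACGTGA, which contains the first, was in 5 members (13.5%), against 2.25% of the table's genes and 0.974% of all windows. It stood in 3 of 9 pump genes and 2 of 28 genes of the other list. These matches are a description of the letters and not evidence of binding. The longer form is shown in capitals in 30-base stretches, 5′ to 3′ on the gene's strand, because it marks the members closest to the CLEAR element.
Mcoln1, chr8:3500462-3500491, plus strand: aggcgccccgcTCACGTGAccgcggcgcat
Gla, chrX:134601215-134601244, minus strand: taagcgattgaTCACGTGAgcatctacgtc
Gla, chrX:134601182-134601211, minus strand: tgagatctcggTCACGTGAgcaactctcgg
Atp6v1a, chr16:44139373-44139402, minus strand: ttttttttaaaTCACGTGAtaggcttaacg
Atp6v0d1, chr8:105566050-105566079, minus strand: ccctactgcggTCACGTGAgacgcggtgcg
Atp6v0e, chr17:26676387-26676416, plus strand: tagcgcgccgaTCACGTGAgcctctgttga

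Lamp1 held 4 copies of the shorter motif, the most of any member, and Atp6v0b held 2. Their upstream stretches are shown with CACGTG in capitals, beside that of Cd63, the member of the 30-gene list with the widest range of expression and no copy in its window.
Lamp1, chr8:13159051-13159160, plus strand: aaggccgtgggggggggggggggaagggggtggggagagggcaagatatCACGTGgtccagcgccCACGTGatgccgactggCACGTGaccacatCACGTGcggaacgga
Atp6v0b, chr4:117887335-117887439, minus strand: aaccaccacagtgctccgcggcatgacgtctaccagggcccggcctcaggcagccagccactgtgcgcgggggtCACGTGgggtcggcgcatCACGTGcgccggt
Cd63, chr10:128909235-128909344, plus strand: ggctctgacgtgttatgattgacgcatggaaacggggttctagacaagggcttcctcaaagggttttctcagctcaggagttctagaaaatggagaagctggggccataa

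**Figure D1:**
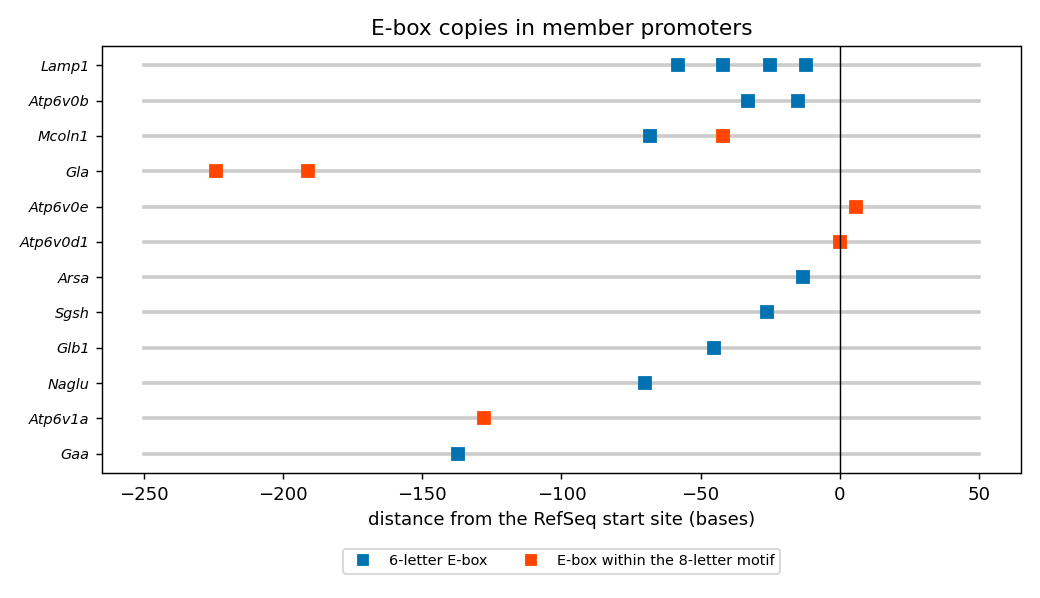
Positions of the E-box in the 12 members that held it, as distance in bases from the RefSeq start site (0), with grey bars for the searched window. The 4 copies of Lamp1 lie upstream within 61 bases of the start, while both copies of Gla lie farther upstream.

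Differences from cDC1 were not larger, by the median, in the members with the motif. In cDC2 against cDC1, the median difference of log2(CPM + 1) was 0.66 for the 12 members with the motif and 0.94 for the 25 without. Of these, 2 and 12 were at least 2-fold higher in cDC2, beside 9.56% of all genes. In macrophages against cDC1 the medians were 0.22 and 0.85. Members without a window were in neither group. They were Asah1, Npc1, Atp6v0a2, Atp6v0c-ps2, Atp6v0d2, Atp6v1b2, Atp6v1c1, Atp6v1g1 and Atp6v1h. Absence of these letters from a window says nothing of elements elsewhere.

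Facts of the libraries that touch these results are as follows. Depth, estimated from the steps between low values, was 44.4, 44.9, 56 and 63.8 in units of 1000000 reads, and a level of 10 CPM stood for 491, 464, 574 and 546 reads. Of the entries, 454 were listed at 0 in cDC1 and 10 to 20 in the others, and models of ribosomal RNA held 12.5%, 5.94%, 7.08% and 11.3% of the column totals. The macrophage column summed to 1169346 CPM and the others to between 905670 and 974649, and rescaling to equal totals shifted every log2 difference of macrophages against cDC1 by -0.37, against cDC2 by -0.27, and of CD103int DC against macrophages by 0.26. The macrophage column also has another name prefix than the other 3, whose meaning is not given; if it marks a batch, batch and population cannot be told apart. The 9 cDC1 markers examined summed to 2949, 638, 755 and 852 CPM, highest in the library labelled cDC1. These 9 were above 0 in every library. The 10 macrophage markers summed to 685, 4038, 2398 and 3838 CPM, with none at 0 in any library, so that their sum in the cDC2 library was not below that in the macrophage library. The 8 cDC2 markers did not single out the cDC2 library, at 1460, 1707, 2062 and 1885 CPM, with Clec4a4 at 0 in cDC1. Cd209a (257, 31.5, 78.8 and 68.9), Clec10a (191, 44.2, 65.2 and 57.7) and Irf4 (152, 38.0, 71.6 and 49.9) were highest in cDC1. Mgl2 and Cd1d1 were highest in CD103int DC, and Sirpa and Klf4 in macrophages. Only Clec4a4 was highest in the cDC2 library, at 1.17 CPM. The part of these features of the libraries, and that of cell admixture, in the lysosomal differences was not tested. Summed markers of T cells (6 genes), NK cells (5) and fibroblasts (4 measured) stayed at or below 43.7 CPM in every library. Of neutrophil markers 2 were measured, with sums of 9.99, 63.9, 35.4 and 158 CPM that came almost wholly from Csf3r. Of tumour epithelial markers 2 were measured, with sums from 1.96 to 9.28 CPM, and of B cell markers 1, Cd79b, at 1.43 to 3.68 CPM. In bulk RNA, fewer cells of a type and less RNA per cell cannot be told apart.

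Lysosomal transcripts were lowest in cDC1. Of the 30 listed genes, 22 had their lowest level there (18 with columns rescaled to equal totals), as did 13 of the 15 pump genes that reached 10 CPM in any library (10 when rescaled). Of all 8724 genes that reached 10 CPM in any library, 38.7% were lowest in cDC1 (26.7% when rescaled). The 30 genes summed to 10463, 19142, 18373 and 17377 CPM, or 1.16%, 1.98%, 1.89% and 1.49% of the column totals, and Psap alone made up a large part of each sum. The 16 pump entries summed to 1383, 2461, 2211 and 2691 CPM. The highest level of a listed gene was in cDC2 for 13, in macrophages for 11 and in cDC1 and CD103int DC for 3 each, beside 12.3%, 38.3%, 31.1% and 18.2% of all genes. Rescaled to equal totals these numbers were 17, 6, 4 and 3, beside 16.6%, 20.4%, 44.5% and 18.5% of all genes. The lead of cDC2 over macrophages in this count was thus small as deposited and larger when rescaled. The genes whose lowest level moved from cDC1 to another library when rescaled were Arsa, Laptm5, Mcoln1, Scarb2, Atp6v0e, Atp6v1g1 and Atp6v1h.

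Members were counted as apart at a difference of log2(CPM + 1) of 1 or more (2-fold), given 10 CPM or more in the higher of the pair. Against cDC1, 12 listed genes were higher and 1 lower in cDC2, where 9.56% of all genes were higher and 7.27% lower. The same counts, 12 and 1, held in CD103int DC (9.16% and 5.46% of all genes) and in macrophages (15.8% and 9.21%). With equal totals the higher genes numbered 11, 9 and 10 in the same order. Of all genes, 17.0%, 14.5% and 27.7% were then apart in either direction. With equal totals over protein-coding genes the higher genes numbered 11, 8 and 10, beside 17.3%, 14.6% and 27.8% of all genes apart. The gene lower in all 3 was Arsb. The medians of the 30 genes were 0.80, 0.64 and 0.72 against cDC1, beside 0.01, 0.03 and 0.09 over all genes. These 3 comparisons share the cDC1 library and are not independent of each other. Every member of the list reached 10 CPM in at least 1 library.

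Counts between the other 3 libraries were lower than those against cDC1. CD103int DC against cDC2 had 0 listed genes higher and 1 lower, the acid phosphatase gene Acp5, where 1.56% and 0.665% of all genes were apart. The median of the 30 genes was -0.16, beside 0.02 over all genes. Of the 30, 25 were below 0, but genes below 0 were not counted over all genes. Some of the 25 were level within counting error, such as Gusb (0.9989-fold, 0.9737 to 1.025). CD103int DC against macrophages had 1 higher (Cd63) and 1 lower (Acp2), beside 4.35% and 8.31% of all genes, with a median of -0.16 that became 0.098 with equal totals. With equal totals over all or over protein-coding genes 2 were higher (Cd63 and Lipa) and 0 lower. Of all genes, 12.8% and 12.3% were then apart in either direction. Macrophages against cDC2 had 0 higher and 3 lower (Cd63, Lipa and Acp5), beside 6.01% and 1.78% of all genes. With equal totals 5 were lower, Hexa and Naglu being added (log2 differences -1.06 and -1.17). The level in CD103int DC lay between those of cDC1 and cDC2 for 24 of the 30 listed genes and 14 of the 15 pump genes (22 and 12 when rescaled), where this held for 50.3% of all 8724 genes reaching 10 CPM somewhere (50.9% when rescaled).

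**Figure D2:**
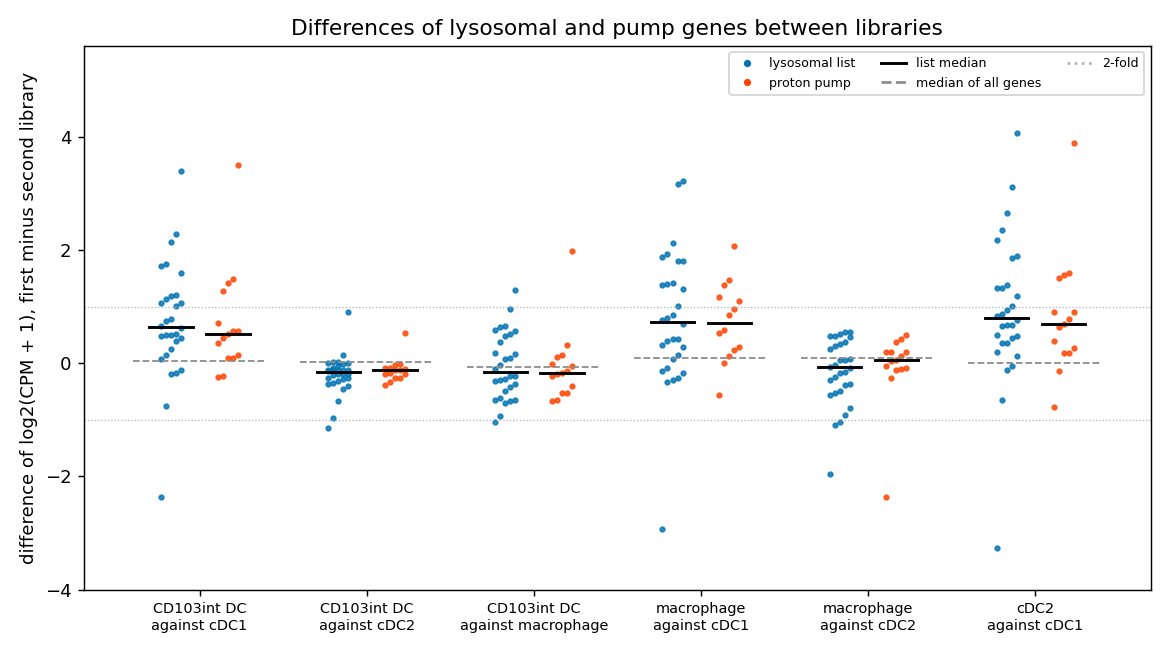
Difference of log2(CPM + 1) between libraries for each listed lysosomal gene (blue) and pump gene (orange) with at least 10 CPM in either library, in 6 pairs. Black bars are list medians, dashed lines the median of all genes and dotted lines 2-fold: medians of 0.52 to 0.80 stand in the pairs with cDC1, and the lowest point of each of these is Arsb.

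Among the acid hydrolases, 7 of 16 were at least 2-fold higher in cDC2 than in cDC1, 7 in CD103int DC and 5 in macrophages, with 1 lower in each. Of all genes, 9.56%, 9.16% and 15.8% were higher in these pairs and 7.27%, 5.46% and 9.21% lower. In CD103int DC the count of higher hydrolases was 5 with equal totals, without Hexa and Tpp1 (log2 differences 0.96 each). It was 4 with equal totals over protein-coding genes, without Neu1 (0.957) as well. In macrophages this count was 4 under both, without Acp5 (0.952 and 0.955). Of all genes, 14.5% and 14.6% were apart in either direction in CD103int DC under these 2 scalings, and 27.7% and 27.8% in macrophages. Gla, the alpha-galactosidase that removes terminal galactose from glycolipids (chromosome X, 134588149 to 134601125 in GENCODE M21, GRCm38), stood at 9.60, 65.7, 50.6 and 96.9 CPM. Its cDC1 level lay apart from the others, which were 6.84-fold (6.21 to 7.55) higher in cDC2, 5.27-fold (4.78 to 5.82) higher in CD103int DC and 10.1-fold (9.18 to 11.1) higher in macrophages. Acp2, the lysosomal acid phosphatase of broad tissue expression (chromosome 2, 91202885 to 91214098), stood at 26.5, 235, 119.7 and 245 CPM. Here cDC2 and macrophages were nearly level, at 8.87-fold (8.38 to 9.40) and 9.26-fold (8.74 to 9.80) above cDC1. CD103int DC held a middle place, 4.51-fold (4.25 to 4.79) above cDC1 and 2.05-fold (1.99 to 2.11) below macrophages, though the latter passed 2-fold only as deposited and not with equal totals (log2 difference -0.77).

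Acp5, the tartrate-resistant acid phosphatase best known from osteoclasts, stood at 15.7, 83.9, 37.3 and 40.2 CPM. The cDC2 library was the high one, 5.36-fold (4.96 to 5.80) above cDC1, 2.25-fold (2.13 to 2.37) above CD103int DC and 2.09-fold (1.98 to 2.20) above macrophages. Lipa, the acid lipase that frees cholesterol and fatty acids from lipoprotein lipids, stood at 80.6, 301, 274 and 140.1 CPM. In this gene cDC2 and CD103int DC stood together, 3.73-fold (3.60 to 3.87) and 3.40-fold (3.28 to 3.52) above cDC1, with macrophages between. The cDC2 level was 2.15-fold (2.09 to 2.21) that of macrophages, and the CD103int DC level 1.96-fold (1.90 to 2.01), which reached 2-fold once columns were rescaled to equal totals (log2 difference 1.22). Hexa, the alpha chain of beta-hexosaminidase that degrades GM2 ganglioside, had the same order, at 141, 322, 296 and 187 CPM.

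Neu1, the sialidase, stood at 19.3, 49.8, 43.4 and 69.7 CPM, and Tpp1, a tripeptidyl peptidase, at 30.6, 78.3, 64.9 and 81.0. Both were lowest in cDC1 and highest in macrophages, the latter for Tpp1 only as deposited (cDC2 when rescaled). Their 2-fold differences of CD103int DC against cDC1 (log2 1.13 and 1.06) were near the threshold, where scaling decided the call.

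Arsb ran the other way. It codes for arylsulfatase B, which removes sulfate from dermatan and chondroitin sulfate (chromosome 13, 93771630 to 93943016, plus strand), and stood at 200.4 CPM in cDC1 against 20.04 in cDC2, 38.2 in CD103int DC and 25.5 in macrophages. The cDC1 level was 9.99-fold (9.34 to 10.7) that of cDC2, 7.86-fold (7.43 to 8.32) that of macrophages and 5.25-fold (5.01 to 5.50) that of CD103int DC. CD103int DC was the next highest, 1.90-fold (1.76 to 2.06) above cDC2. Of its exon bases 32.3% overlap Gm26527 on the opposite strand, which was listed at 0 in cDC1 and at 0.624 to 2.18 CPM in the others. The sulfamidase gene Sgsh, which acts on heparan sulfate, was also highest in cDC1 by a smaller margin (20.1, 12.5, 11.5 and 15.8 CPM), and so was Man2b1, the alpha-mannosidase, at 469, 433, 434 and 382 CPM.

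The other 6 hydrolases, Gaa, Glb1, Gusb, Asah1, Arsa and Naglu, were within 2-fold in every pair of libraries as deposited. Naglu passed 2-fold in macrophages against cDC2 with equal totals over all or over protein-coding genes (log2 differences -1.17 and -1.10). The acid ceramidase gene Asah1 (160, 205, 177 and 217 CPM) and the beta-glucuronidase gene Gusb (163, 232, 231 and 219.8) were lowest in cDC1, and so, as deposited only, was the arylsulfatase A gene Arsa (24.5, 39.8, 38.4 and 27.3). The beta-galactosidase gene Glb1 (22.5, 31.6, 32.1 and 21.1), the heparan-degrading Naglu (34.9, 55.4, 41.7 and 29.1) and the acid glucosidase gene Gaa (61.5, 66.9, 53.6 and 54.5) were not. Among these genes the macrophage level did not exceed that of cDC1 beyond 1.5-fold.

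**Figure D3:**
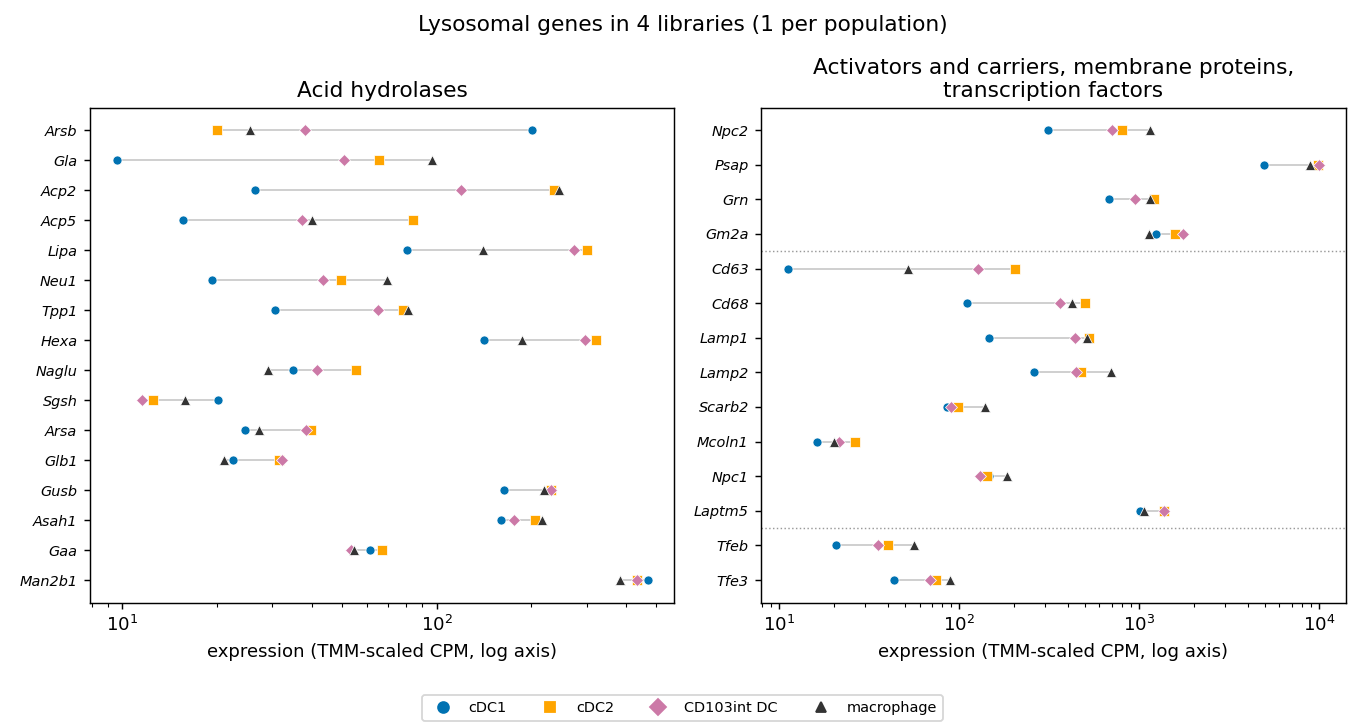
Expression of the 30 listed genes in CPM on a log axis, 1 point per library and a grey bar for the range, ordered within each class by range of log2(CPM + 1). In most rows the cDC1 point (blue circle) lies at the left, while Arsb, Sgsh and Man2b1 have it at the right.

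Of the 4 activators and carriers, Psap and Npc2 were at least 2-fold apart in a pair with cDC1. Psap, the precursor of the saposins that present glycolipids to hydrolases, stood at 4917, 9857, 9945 and 8884 CPM. Its cDC1 level was about 2-fold below those of cDC2 (2.005-fold, 1.995 to 2.014) and CD103int DC (2.023-fold, 2.013 to 2.032), so that it passed the threshold as deposited but not with equal totals. Per kilobase of exon Psap led all 30 genes in every library, at 1792, 3592, 3624 and 3238 CPM per kilobase. Npc2, the soluble protein that hands cholesterol to NPC1, stood at 309, 802, 702 and 1141 CPM. It was 2.59-fold (2.54 to 2.64), 2.27-fold (2.23 to 2.31) and 3.69-fold (3.63 to 3.76) above cDC1 in the order of the other libraries. Its membrane partner Npc1 did not follow, at 147, 142, 130.1 and 184 CPM. Gm2a, the GM2 activator, was highest in CD103int DC (1232, 1586, 1752 and 1124), and progranulin (Grn) was lowest in cDC1 (679.6, 1212, 946 and 1148).

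Of the membrane proteins, Cd63 had the widest range. This tetraspanin of late endosomes, lysosomes and exosomes (chromosome 10, 128900989 to 128912822) stood at 11.1, 202, 127 and 51.6 CPM. The 4 libraries differed from each other beyond counting error, with cDC2 18.1-fold (16.6 to 19.8), CD103int DC 11.4-fold (10.46 to 12.5) and macrophages 4.63-fold (4.22 to 5.08) above cDC1. CD103int DC was 2.47-fold (2.36 to 2.58) above macrophages and 1.59-fold (1.54 to 1.64) below cDC2. Cd68, the macrophage-type LAMP family member, stood at 109.8, 497, 362 and 422 CPM, highest in the cDC2 library rather than in macrophages.

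Lamp1 and Lamp2, the heavily glycosylated proteins that line the lysosomal membrane, differed in pattern. Lamp1 stood at 146, 528, 441 and 514 CPM, 3.63-fold (3.53 to 3.72) higher in cDC2 than in cDC1, 3.03-fold (2.95 to 3.11) in CD103int DC and 3.53-fold (3.44 to 3.62) in macrophages. Lamp2, which also serves chaperone-mediated autophagy, stood at 261, 475, 447 and 699 CPM, and only macrophages were 2-fold above cDC1 (2.68-fold, 2.63 to 2.74). Of the exon bases of Lamp1, 9.31% overlap Grtp1 on the opposite strand, which was at most 5.32 CPM. Scarb2 (LIMP-2, the carrier of glucocerebrosidase), the calcium channel gene Mcoln1 and Laptm5, a lysosomal protein of blood cells, were within 2-fold in every pair, at 84.9 to 138, 16.2 to 26.4 and 1005 to 1371 CPM.

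Both transcription factors of the list were lowest in cDC1. Tfeb, the main inducer of lysosomal genes, stood at 20.5, 40.2, 35.2 and 55.8 CPM and was 2.72-fold (2.53 to 2.92) higher in macrophages than in cDC1. Tfe3 stood at 43.3, 74.1, 68.4 and 88.2 CPM, 2.04-fold (1.94 to 2.15) higher in macrophages than in cDC1, which fell under 2-fold with equal totals (log2 difference 0.65). Their relatives, taken from a list of the pathway, had the same low point: Mitf was at 18.7, 48.0, 53.8 and 45.8 CPM and Tfec, a myeloid member of the family, at 1.57, 19.9, 14.0 and 27.6. Activity of these factors is set largely by their phosphorylation and place in the cell, which transcript levels do not measure.

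The pump genes were also lowest in cDC1 in sum, while their highest sum was in macrophages as deposited and in cDC2 as a share of the column total (0.254% against 0.230%). Against cDC1, 4 of the 15 pump genes with at least 10 CPM in either library were 2-fold higher in cDC2 (median 0.70), 4 of 15 in CD103int DC (median 0.52) and 5 of 14 in macrophages (median 0.72, or 3 genes with equal totals), and 0 were lower. Of all genes, 9.56%, 9.16% and 15.8% were higher in these pairs as deposited, and 7.27%, 5.46% and 9.21% lower. With equal totals, 27.7% of all genes were apart in either direction in macrophages against cDC1. CD103int DC against cDC2 had 0 pump genes apart in either direction (median -0.13, beside 0.02 over all genes). In this pair 1.56% of all genes were higher and 0.665% lower. Of the 15 pump genes 14 were below 0, but genes below 0 were not counted over all genes. Against macrophages CD103int DC had 1 higher, Atp6v0d2, and 0 lower, beside 4.35% and 8.31% of all genes. Macrophages against cDC2 had 0 higher and 1 lower, again Atp6v0d2, beside 6.01% and 1.78% of all genes.

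In the V1 sector the A and B subunits of the ATPase head had the widest ranges. Atp6v1b2, the B subunit of most tissues, stood at 128, 387, 343 and 543 CPM and was 3.02-fold (2.93 to 3.11) higher in cDC2, 2.68-fold (2.60 to 2.76) in CD103int DC and 4.24-fold (4.13 to 4.36) in macrophages than in cDC1. Atp6v1a, the A subunit that hydrolyses ATP, stood at 157, 271, 225 and 353 CPM, 2.25-fold (2.19 to 2.31) higher in macrophages than in cDC1. The regulatory C subunit gene Atp6v1c1 stood at 50.2, 94.2, 74.8 and 108.7 CPM, 2.17-fold (2.07 to 2.27) higher in the same pair. Both of these last differences were under 2-fold with equal totals, at log2 0.80 and 0.74. The stalk and coupling subunits varied less. Atp6v1g1 (95.9 to 113 CPM), Atp6v1h (81.3 to 92.0) and Atp6v1d (48.9 to 70.7) were within 1.5-fold over all 4 libraries, and Atp6v1e1 (67.5 to 122) and Atp6v1f (49.7 to 81.4) were within 2-fold.

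In the V0 sector the proteolipid ring gene Atp6v0c stood at 234, 686, 569 and 647 CPM, 2.94-fold (2.875 to 3.001), 2.43-fold (2.38 to 2.49) and 2.77-fold (2.71 to 2.83) above cDC1. Its processed pseudogene Atp6v0c-ps2, the only member that stayed under 10 CPM everywhere, was at 0.0736, 1.21, 1.66 and 1.90 CPM, and reads could have been divided between the pair, so that its own level is uncertain. The second ring gene Atp6v0b differed less (57.7, 108.8, 95.3 and 112 CPM), and Atp6v0e was nearly level (105, 126, 116 and 105). Per kilobase of exon Atp6v0c led the pump genes in cDC2, CD103int DC and macrophages, at 203, 168 and 191 CPM per kilobase, while in cDC1 Atp6v1g1 led at 84.5, with Atp6v0c at 69.0.

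**Figure D4:**
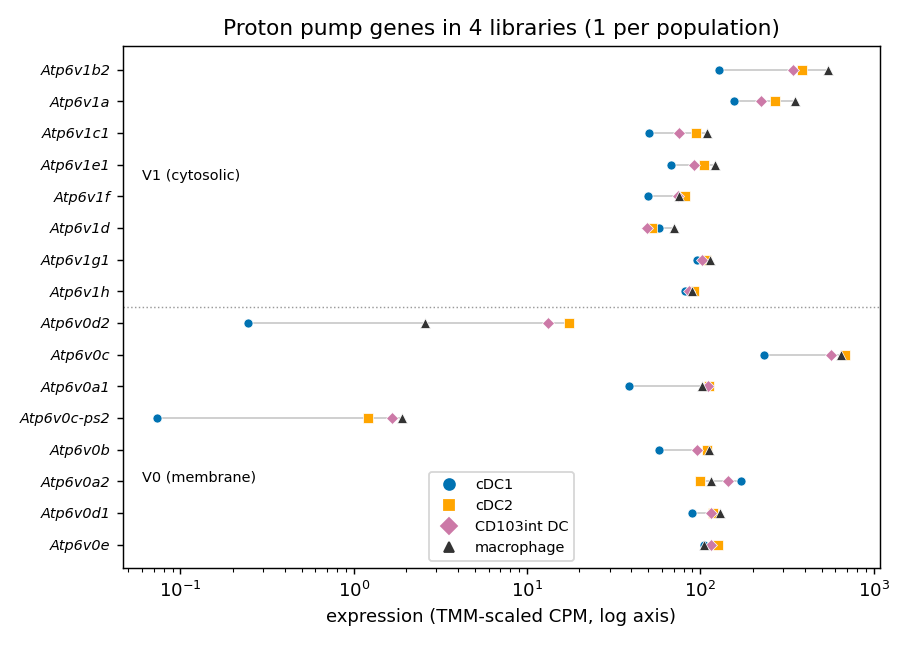
Expression of the 16 pump entries in CPM on a log axis, V1 above and V0 below the dotted line, 1 point per library and a grey bar for the range. Most rows span less than 3-fold, while Atp6v0d2 runs from 0.245 CPM in cDC1 to 17.4 CPM in cDC2, and Atp6v0a2 has cDC1 at the right.

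The subunits with several genes differed in which gene was used. Subunit d, which joins the ring to the central stalk, is coded by the general Atp6v0d1 and by Atp6v0d2, a form known from osteoclasts and some macrophages and dendritic cells. Atp6v0d1 stood at 89.5, 118, 115 and 129 CPM, and Atp6v0d2 (chromosome 4, 19876841 to 19922605) at 0.245 (0.126 to 0.427), 17.4, 13.1 and 2.57 CPM. Only 12 estimated reads lay behind its cDC1 level, so that its fold against cDC1 is imprecise, at 70.9 (40.4 to 138) in cDC2 and 53.7 (30.6 to 104) in CD103int DC. The cDC2 and CD103int DC libraries stood together and apart from macrophages, at 6.77-fold (5.65 to 8.15) and 5.12-fold (4.27 to 6.18) the macrophage level. The share of Atp6v0d2 among subunit d reads, which does not depend on how columns are scaled, was 0.273% (0.141 to 0.476, exact binomial), 12.8% (12.0 to 13.7), 10.3% (9.58 to 11) and 1.95% (1.64 to 2.29). Per kilobase of exon the shares were 0.18%, 8.86%, 7.02% and 1.29%, in the same order.

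Subunit a, the fixed half-channel through which protons pass and the part that directs the pump to a compartment, showed another exchange. Atp6v0a1 stood at 38.8, 112, 111 and 102 CPM and was lowest in cDC1, by 2.64-fold (2.51 to 2.78) to 2.89-fold (2.74 to 3.04). Atp6v0a2, a form known from the Golgi and early endosomes, stood at 171, 99.9, 144 and 115 CPM and was highest in cDC1, 1.71-fold (1.65 to 1.78) above cDC2. Tcirg1, the a3 form of lysosomes and osteoclasts, has a symbol outside the Atp6v series and was taken from the pathway list; it stood at 70.6, 239, 194 and 303 CPM. Of the reads of the 3 genes, Atp6v0a2 thus had 61.0% (60.2 to 61.8) in cDC1 against 22.2%, 32.1% and 22.1% in the others, and Tcirg1 had 25.2% (24.4 to 25.9) against 53.0%, 43.3% and 58.2%. Per kilobase of exon the shares of Atp6v0a2 were 54.5%, 17.7%, 26.6% and 17.4%, and those of Tcirg1 32.8%, 61.9%, 52.4% and 66.8%. In CD103int DC both shares lay between those of cDC1 and of the other libraries. The accessory subunit genes Atp6ap1 (145, 202, 176 and 211 CPM) and Atp6ap2 (138, 142, 120.4 and 166) were within 2-fold.

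**Figure D5:**
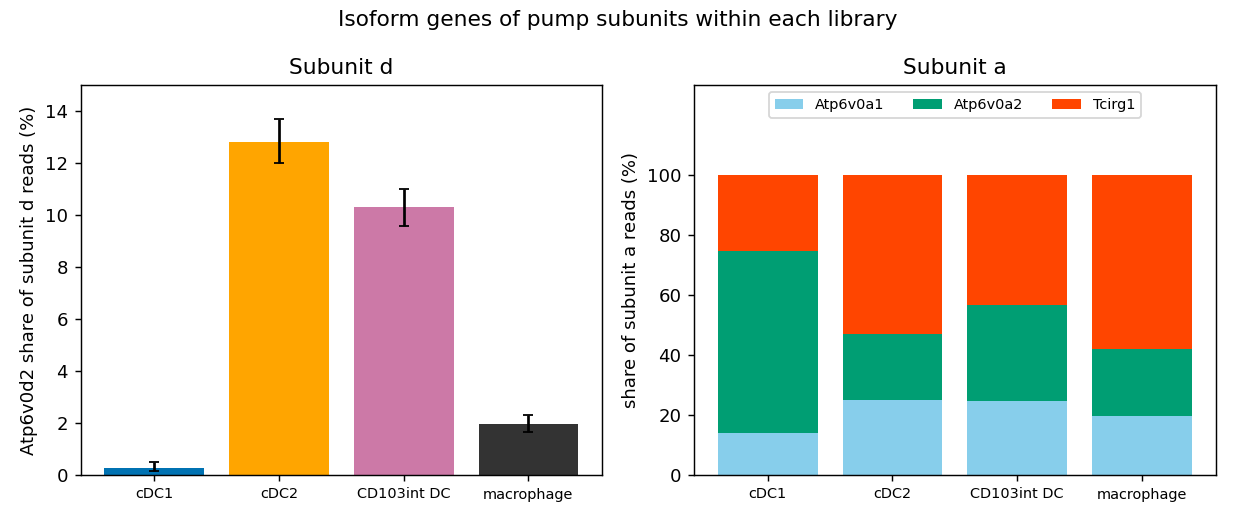
Shares of reads within each library: on the left Atp6v0d2 among the reads of both subunit d genes, with exact 95% binomial intervals as error bars, and on the right the 3 subunit a genes as stacked bars. Atp6v0d2 reached 12.8% in cDC2 and 10.3% in CD103int DC, and Atp6v0a2 held 61.0% in cDC1.

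Further lysosomal genes were taken from lists of the pathway and read against the 9.16% of all genes higher and 5.46% lower in CD103int DC than in cDC1. Of 20 further membrane proteins with at least 10 CPM in either library, 7 were 2-fold higher and 2 lower in CD103int DC than in cDC1 (median 0.66), and of 25 further hydrolases and lysosomal enzymes 4 were higher and 2 lower (median 0.28). Among the members, 3 of 8 membrane proteins and 7 of 16 hydrolases were higher in that pair, and no difference between lists was tested. Genes of sorting to lysosomes had 1 of 13 higher and 0 lower, and genes of TFEB control by mTORC1 (Mitf and Tfec included) 2 of 15 and 0, shares near those of all genes. Pump accessory genes had 2 of 8 higher and 1 lower. Those at least 4-fold apart in a pair with CD103int DC were Slc11a1, the divalent metal transporter NRAMP1 of phagosomes (23.9, 303, 169.8 and 263 CPM), Gpnmb, a glycoprotein of lysosome-rich myeloid cells (4.89, 129, 54.5 and 190.3), Slc36a1, a proton-coupled amino acid exporter (8.50, 42.1, 44.8 and 40.6), Pla2g15, the lysosomal phospholipase A2 (11.1, 77.6, 54.97 and 72.85), Tfec and Dmxl2, a pump assembly factor (2.12, 17.0, 12.7 and 27.7). All 6 were lowest in cDC1. The 5 genes of these lists that were at least 2-fold lower in CD103int DC than in cDC1 were, like Arsb among the members, highest in cDC1 and were named after their values were seen. They were the palmitoyl thioesterase gene Ppt1 (345.5, 207.9, 148.8 and 204.5 CPM), the acid sphingomyelinase gene Smpd1 (22.2, 10.99, 10.07 and 10.35), the cystine exporter gene Ctns (38.4, 19.6, 16.3 and 24.9), Laptm4b (11.6, 2.57, 2.82 and 3.98) and Rogdi (51.2, 22.8, 19.3 and 20.2). Against cDC2, CD103int DC had 0 genes of these lists higher and 1 lower, Gpnmb, beside 1.56% and 0.665% of all genes. Those counted, with at least 10 CPM in either library, were 24 hydrolases and enzymes and 19 membrane proteins. With them were 14 sorting genes, 15 of TFEB control and 8 pump accessory genes.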

How the data were processed

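The authors deposited 1 table of expression signal values, which per the name of the deposited table are filtered CPM with TMM scaling (trimmed means of log ratios between libraries); 1 column exceeds 1000000 in sum, so the unit was recorded as signal. Aligner, counter, build and strand setting: not given in the sources used here. RNA was column-purified, treated with DNase and made into directional libraries, per the labels' protocols. All 13976 identifiers matched GENCODE M21 (GRCm38), which gave spans and union exon lengths. In each column all values were multiples of 1/100 of a step taken as 1 read, and 70.6% to 79.0% were whole at a tolerance of 0.001; exact Poisson and binomial intervals rest on these reads, which without molecular identifiers are not independent molecules, and cover counting error only. No count test was run. Members and lists were chosen with earlier results of these data known. Members at least 2-fold apart in any of 6 pairs on log2(CPM + 1), with at least 10 CPM in the higher library, were named, with Tfeb, Tfe3, Lamp1, Atp6v0d1 and isoforms of named pump genes; other genes were named at 4-fold in a pair of CD103int DC. Alternatives were 3 scalings, an added value of 0.1 and no minimum. The step and the 2-fold count were tried on simulated data in which genes were raised or lowered 4-fold. Calls near 2-fold, and the scaling, were not tested in this way. Python 3.11.15, numpy 2.4.6, pandas 2.3.3, scipy 1.17.1 and matplotlib 3.10.9 were used.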

Additional observations from a re-analysis of the deposited data

How the results depend on the processing

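Of 60 recounts of members 2-fold apart in either direction (12 counts under 5 alternatives), 57 were within 1.5 times the reported count. The exceptions were the listed genes in macrophages against cDC2, 3 as reported and 5 with equal totals, and the pump genes in macrophages against cDC1, 5 as reported and 3 with equal totals over all or over protein-coding genes. A fall from 13 to 9 listed genes in CD103int DC against cDC1, with equal totals over protein-coding genes, stayed within 1.5 times. Median-ratio scaling shifted no pair by more than 0.02 in log2, so it could move few counts. The recounts do not register a change of direction. The listed genes in CD103int DC against macrophages went from 1 higher and 1 lower to 2 higher and 0 lower under both equal-total scalings. Medians changed sign with equal totals over all and over protein-coding genes for the listed genes in CD103int DC against macrophages (0.098 and 0.026), the pump genes in that pair (0.091 and 0.019) and the pump genes in macrophages against cDC2 (-0.207 and -0.138), which follows from the shift of the macrophage column. Of the 60 differences of named members past 2-fold, 10 fell under it with another scaling: Hexa, Neu1, Tpp1 and Psap in CD103int DC against cDC1, Psap in cDC2 against cDC1, Acp5, Tfe3, Atp6v1a and Atp6v1c1 in macrophages against cDC1, and Acp2 in CD103int DC against macrophages. Per kilobase the Atp6v0d2 share was 8.86% in cDC2, 7.02% in CD103int DC and 1.29% in macrophages. No paired analysis was possible because each population had 1 library, and for the same reason no library could be left out.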
